A study of Homo sapiens with 8 samples.

Results

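Control siRNA and Empty Vector were the control transfections of a study of the RNA-binding protein AUF1 in HEK293, an established human embryonic kidney line. The control siRNA library and the empty vector library, 1 each, were taken by the treatment given in the labels and made up 2 of the 8 total RNA libraries. The other 6 came from cells given AUF1 siRNA, or Flag-AUF1 in its p37, p40, p42 and p45 forms, singly or as a mix of the 4 (all isoforms). The sources used here do not give the siRNA sequences, the vector, the transfection reagent or the time of harvest, and no untransfected library was used here. With 1 library per group there is no replicate check, so every difference below is a difference between these libraries and no p-value was computed. The kind of nucleic acid transfected and the handling of a single culture or library cannot be told apart.

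An siRNA is a short RNA duplex that is loaded into an Argonaute protein in the cytoplasm and directs it to complementary mRNAs. A plasmid is a circular DNA that has to reach the nucleus to be transcribed, and an empty one carries no inserted coding sequence. Either nucleic acid can be detected by innate sensors, whose signalling induces interferon-stimulated genes.

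Levels are FPKM, fragments normalised to transcript length and library size, summed over the transcripts of a gene that are 300 nt or longer and scaled between libraries by the median of ratios. A ratio is log2 of control siRNA plus 1 FPKM minus log2 of empty vector plus 1 FPKM, so that positive values mean more RNA with the control siRNA. Where a pair of levels is given, the control siRNA comes first and the empty vector second. The AUF1 gene HNRNPD (chromosome 4, 83273651 to 83295656 in hg19, ENSG00000138668) measured 298.0 and 312.8 FPKM in the control libraries, a ratio of -0.07. The deposited bounds, summed over its transcripts and scaled, were 259.2 to 336.7 and 265.1 to 360.4 FPKM and overlapped. The AUF1 siRNA library held 167.1 FPKM of HNRNPD and the 5 overexpression libraries 3006 to 4888 FPKM.

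Of 8 tested HEK293 marker genes 0 were past 2-fold, where 7.71% of all tested genes were. Their median ratio was -0.22, and 0 of the 4 led by the same transcript in both libraries had a ratio above 0. The median of the markers over the mean of all 8 libraries was lowest in the control siRNA library, at -0.13. They included CDH2 at 108.7 and 138.6 FPKM, NEFM at 31.1 and 51.6 FPKM and EPCAM at 25.7 and 20.3 FPKM. HOXA10 was listed at 0 in the control siRNA library and had 27.03 FPKM in the empty vector library. The 9 fibroblast markers summed to 12.5 and 9.22 FPKM with THY1 at 0 in both, and the 5 kidney epithelium markers to 2.62 and 0.702 FPKM with SLC12A1 at 0 in both. The 8 cervical carcinoma markers summed to 310.8 and 172.4 FPKM, most of it CDKN2A, the gene of a cyclin-dependent kinase inhibitor, at 244.4 and 113.5 FPKM with a ratio of 0.47 when transcripts are weighted by length, and KRT5 was at 0 and 0.0797 FPKM.

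Most genes stood at similar levels in both control libraries. Of 10387 genes tested, 369 were past 2-fold higher with the control siRNA (3.55%) and 432 were past 2-fold lower (4.16%), 7.71% together, with a median ratio of -0.00 and a standard deviation across genes of 0.60. The ratio lay within 0.5 of 0 for 72.9% of the genes. Without the scaling the median ratio moved to -0.19 and 27.5% of the genes past 2-fold were higher with the control siRNA, against 46.1% with it. By the same rule 602 to 863 genes were past 2-fold between an overexpression library and the empty vector, a control those comparisons share with the present one, and 1438 genes between the AUF1 siRNA and the control siRNA library. 7SK RNA and its copies, cytosolic ribosomal protein genes, respiratory chain genes and nuclear copies of mitochondrial genes had medians of 0.42 to 1.33. The median of the replication-dependent histone genes was 0.47. Other lists also had most of their ratios on one side with smaller medians, such as AUF1 and its relatives, with 9 of 12 above 0 and a median of 0.07.

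**Figure D1:**
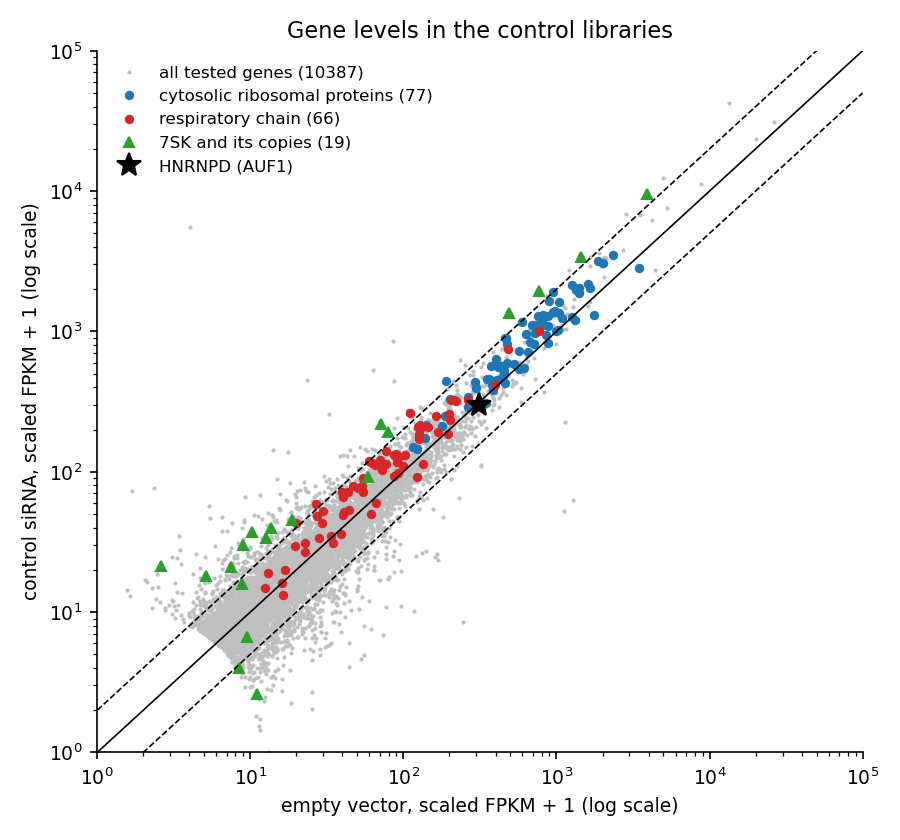
Scaled FPKM plus 1 of the 10387 tested genes in the empty vector library (x axis) and the control siRNA library (y axis), both on log scales, with ribosomal protein, respiratory chain and 7SK genes coloured. The solid line marks equal levels and the dashed lines 2-fold differences. HNRNPD lies near the solid line, and 14 of the 19 points for 7SK and its copies lie above the upper dashed line.

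7SK and its copies had the highest median among the groups of more than 1 gene. 7SK is a small nuclear RNA made by RNA polymerase III that holds the elongation kinase P-TEFb in an inactive complex, and the genome carries many copies of its sequence. The 7SK gene RN7SK (ENSG00000202198, hg19 chromosome 6, 52860418 to 52860748, named RF00100 in GENCODE release 29) measured 9576 FPKM after the control siRNA and 3890 FPKM after the empty vector. Its scaled bounds were 9357 to 9795 and 3742 to 4037 FPKM and did not overlap. The AUF1 siRNA library held 9531 FPKM of RN7SK, p37 held 7684, p40 held 6788, p42 held 7523, p45 held 6621 and the library of all isoforms 5002 FPKM. The empty vector library was the lowest of the 8, and both siRNA libraries were above all 6 plasmid libraries. The fold between the control libraries was 2.46 on the FPKM scale.

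The most abundant copies of 7SK had ratios close to it. RN7SKP71 (hg19 chromosome 12, 112704881 to 112705198) stood at 3403 and 1452 FPKM, RN7SKP203 (hg19 chromosome 2, 76672205 to 76672536) at 1925 and 766.6 FPKM and RN7SKP255 (hg19 chromosome 14, 90178855 to 90179167) at 1350 and 489.5 FPKM. These copies are shown beside 7SK over the first 120 bases, because a stretch this alike bears on whether reads from it can be assigned to a single copy. The sequences are those of GENCODE release 29 (GRCh38), written 5′ to 3′ as DNA, and capitals mark bases that differ from RN7SK.
RN7SK: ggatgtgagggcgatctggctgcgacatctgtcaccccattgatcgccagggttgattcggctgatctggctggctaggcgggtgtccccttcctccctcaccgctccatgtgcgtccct
RN7SKP71: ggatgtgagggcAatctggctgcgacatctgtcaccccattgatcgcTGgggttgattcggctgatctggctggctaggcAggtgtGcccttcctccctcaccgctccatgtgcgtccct
RN7SKP203: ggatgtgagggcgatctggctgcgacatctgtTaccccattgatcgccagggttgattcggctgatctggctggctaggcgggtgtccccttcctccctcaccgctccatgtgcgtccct
RN7SKP255: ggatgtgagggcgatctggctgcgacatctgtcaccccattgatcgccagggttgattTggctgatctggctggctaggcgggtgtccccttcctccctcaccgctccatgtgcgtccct
Over these bases RN7SKP71 differs from RN7SK at 5 positions, and RN7SKP203 and RN7SKP255 at 1 position each. The copies are less alike beyond them. Over the whole alignment, gaps included, identity with RN7SK was 81.7% for RN7SKP71, 80.8% for RN7SKP203 and 82.4% for RN7SKP255. The longest run of identical bases shared with the RN7SK transcript was 145 nt in RN7SKP71, 143 nt in RN7SKP203 and 103 nt in RN7SKP255. In the other tested copies it was shorter, from 20 nt in RN7SKP50 to 78 nt in RN7SKP176. The sources used here do not say how reads were divided between such copies, so the copies cannot be read as separate genes. Of 19 tested members of the family, RN7SK included, 14 were past 2-fold higher with the control siRNA and 2 past 2-fold lower, against 3.55% and 4.16% of all tested genes, and their median ratio was 1.33. The lower ones, RN7SKP87 at 1.62 and 10.02 FPKM and RN7SKP74 at 3.0 and 7.48 FPKM, were among the least abundant. In 13 of the 19 the empty vector library was the lowest of all 8.

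**Figure D2:**
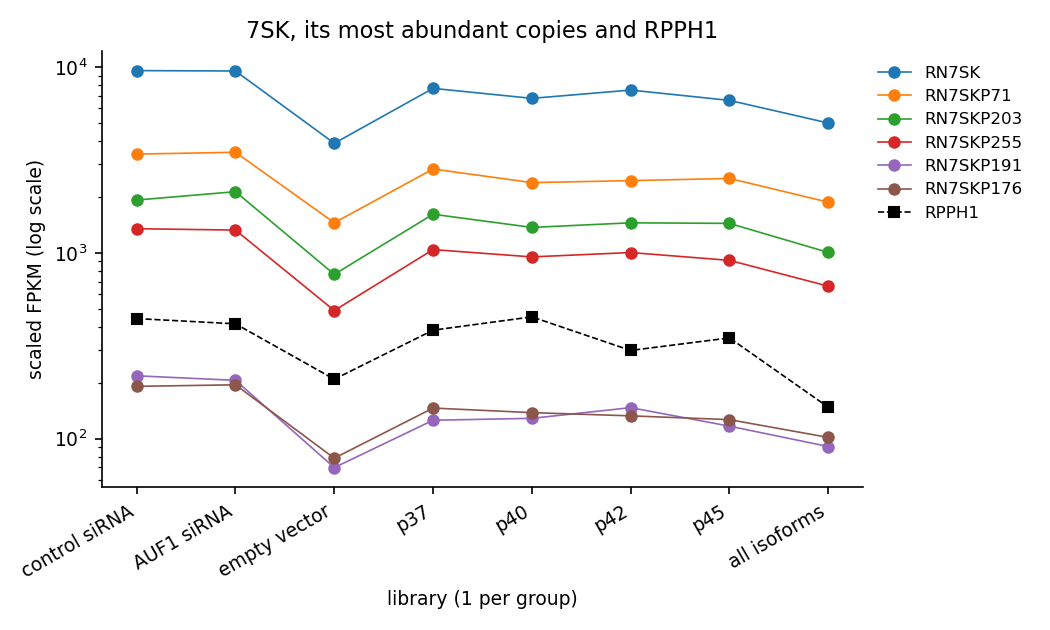
Scaled FPKM (log scale) of 7SK, its 5 most abundant tested copies by the control siRNA library and RPPH1 in each of the 8 libraries, 1 point per library. The empty vector points are the lowest for RN7SK and these copies, at 3890 FPKM for RN7SK against 5002 to 9576 FPKM elsewhere, and RPPH1 is lowest in the library of all isoforms.

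RPPH1, the RNA subunit of ribonuclease P, which trims the 5′ ends of transfer RNA precursors, is another RNA polymerase III product. RPPH1 (hg19 chromosome 14, 20811234 to 20811566) measured 443.1 and 208.9 FPKM, a ratio of 1.08, and its bounds of 394.8 to 491.5 and 176.2 to 241.7 FPKM did not overlap. Elsewhere it measured 415.3 FPKM after AUF1 siRNA, 147.8 for the mix of isoforms, 348.8 for p45, 298.5 for p42, 452.7 for p40 and 383.9 FPKM for p37. The empty vector was the second lowest and the control siRNA the second highest of the 8. RPPH1 was the only tested gene on the list of RNA polymerase III products, since transcripts below 300 nt were left out.

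Cytosolic ribosomal protein genes encode the protein part of the ribosome. Of 77 tested, 68 had a ratio above 0 and the median ratio was 0.42, against 5179 of 10387 and -0.00 for all tested genes. A single member, RPS28 of the small subunit (hg19 chromosome 19, 8386384 to 8387809), was past 2-fold, where 3.55% of all tested genes were past 2-fold higher. It stood at 445.0 and 189.0 FPKM, a ratio of 1.23. RPS28 measured 371.9 FPKM after AUF1 siRNA, 140.2 for the mix of isoforms, 295.5 for p45, 244.7 for p42, 420.8 for p40 and 259.3 FPKM for p37. The control siRNA library was the highest of 8 and the empty vector the second lowest. RPS3 followed at 1893 and 947.6 FPKM, RPS2 at 1163 and 592.1 FPKM and RPS21 at 899.1 and 458.8 FPKM, with ratios of 1.00, 0.97 and 0.97, none of them past the threshold. The median was 0.22 without scaling and 0.35 with scaling by the 75th percentile, in the same direction. Processed pseudogenes of ribosomal protein genes, a group chosen by symbol after values had been seen, had 95 of 112 ratios above 0 and a median of 0.38. They share sequence with the parent genes and are no separate support.

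Other protein-coding genes led by short transcripts did not share the direction, whereas processed pseudogenes outside the ribosomal and mitochondrial groups did. Among 2391 of them led by the same transcript of under 1000 nt in both libraries, 1086 ratios were above 0 and the median was -0.05. At a mean of 100 FPKM or more the median of such genes was -0.09 over 329 genes. The median leading transcript of the ribosomal protein genes was 585 nt long, and that of the 239 other processed pseudogenes 514 nt. Of these pseudogenes 165 had a ratio above 0, with a median of 0.23. Whether transcript length or level bears on these ratios was not tested.

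Nuclear genes of the respiratory chain and ATP synthase, whose products work in the inner mitochondrial membrane, stood higher as well. Of 66 tested, 57 had a ratio above 0, the median was 0.48, 3 were past 2-fold higher and 0 were past 2-fold lower, against 3.55% and 4.16% of all tested genes, so that the count of 3 is close to the share of all genes. UQCR10, a small subunit of complex III (hg19 chromosome 22, 30163352 to 30166402), measured 259.3 and 108.8 FPKM, a ratio of 1.24, against 125.5 to 175.4 FPKM in the other 6 libraries. The control siRNA library was the highest of 8 and the empty vector the lowest. ATP5F1E, the epsilon subunit of ATP synthase, was at 58.2 and 25.9 FPKM, and UQCRC1, a core subunit of complex III, at 41.9 and 18.8 FPKM. Neither was past 2-fold on the length-weighted measure defined below, with ratios of 0.93 and 0.64. NDUFB11 of complex I followed at 117.8 and 58.98 FPKM, short of the threshold. Without scaling the median of the respiratory chain genes was 0.29.

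Mitochondrial ribosomal protein genes had a smaller shift, with a median of 0.17 and 46 of 62 ratios above 0, and that median turned to -0.03 without scaling. The 4 past 2-fold were all higher with the control siRNA, against 3.55% of all tested genes. MRPS24 was at 138.6 and 57.2 FPKM, MRPL55 at 92.1 and 39.3 FPKM, MRPL43 at 142.3 and 64.5 FPKM and MRPS14 at 49.2 and 22.999 FPKM. MRPL43 and MRPS14 were led by different transcripts in the 2 libraries, and their length-weighted ratios were 0.82 and 0.51.

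Transcripts of the mitochondrial genome itself were not analysed here, but nuclear copies of them were. All 15 tested genes named as copies of mitochondrial genes, a group also chosen by symbol after values had been seen, had ratios above 0. Their median was 0.78 and 5 were past 2-fold higher, where 3.55% of all tested genes were. Of the 5, MTCO1P53 rested in the control siRNA library on a 306-nt assembled transcript. That transcript reaches position 125865829 of chromosome X (hg19), whereas the gene ends at 125606437. MTATP6P1 was at 3608 and 1888 FPKM, MTCO1P12 at 6200 and 4235 FPKM and MTND6P4 at 629.8 and 234.8 FPKM. The transcript of MTND6P4 shares a run of 91 nt with the mitochondrial gene MT-ND6, and whether reads on these copies came from mitochondrial RNA was not tested. Over the mean of all 8 libraries the median of the group was 0.73 for the control siRNA, 0.38 for p45 and between -0.22 and 0.07 for the other 6.

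**Figure D3:**
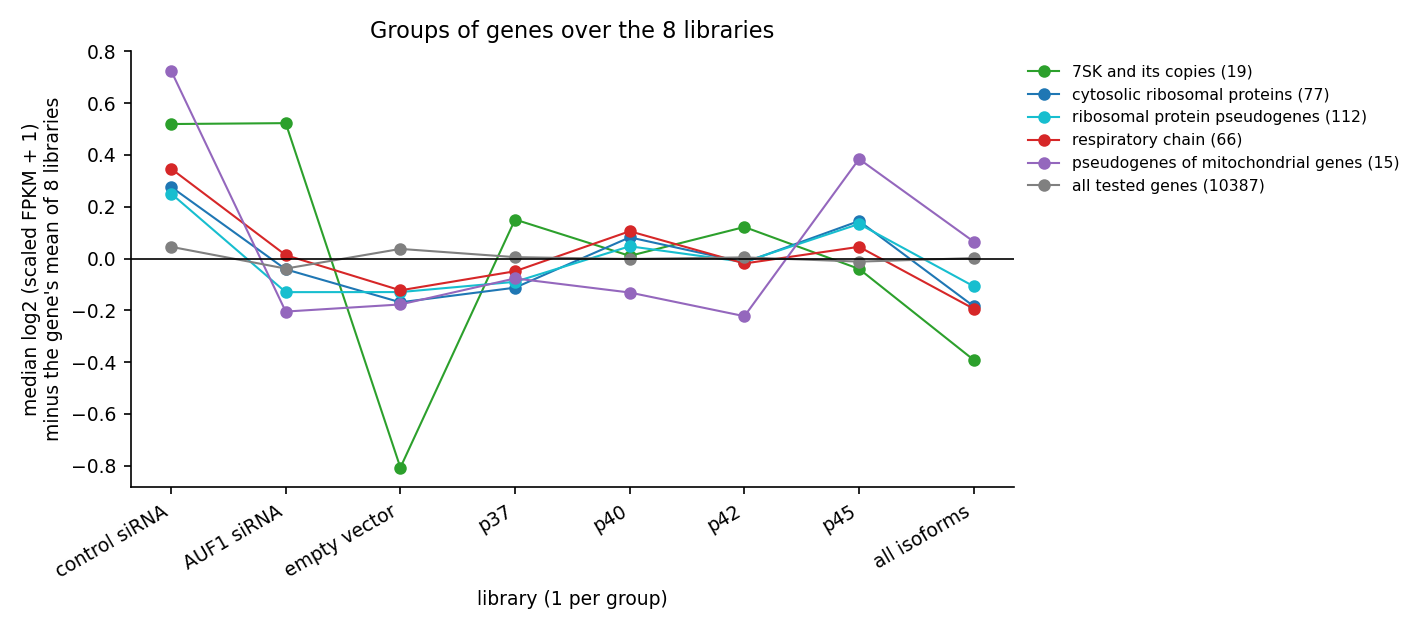
Median over each group of genes of log2 (scaled FPKM + 1) minus the gene's own mean of the 8 libraries (y axis), by library (x axis, 1 per group), with the number of genes in brackets. For 7SK and its copies both siRNA libraries are high at 0.52 and the empty vector is low at -0.81, whereas for the ribosomal protein, respiratory chain and mitochondrial groups the control siRNA library is the highest.

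The groups differed in which library stood apart. For 7SK and its copies the control siRNA and the AUF1 siRNA library both had a median of 0.52 above the gene's mean of 8 libraries, and the empty vector library stood at -0.81. For the cytosolic ribosomal protein genes the control siRNA library was at 0.28 and the AUF1 siRNA library at -0.04, with the empty vector at -0.17 and all isoforms at -0.18. The other plasmid libraries were at 0.14 for p45, 0.08 for p40, -0.02 for p42 and -0.11 for p37. The respiratory chain genes were at 0.35 with the control siRNA, 0.01 with AUF1 siRNA, -0.12 with the empty vector and -0.19 with all isoforms. They were at 0.11 with p40, 0.05 with p45, -0.02 with p42 and -0.05 with p37. The high level of these genes in the control siRNA library was not shared by the AUF1 siRNA library, which differs from it in AUF1 as well.

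Replication-dependent histone genes encode the core and linker histones made in S phase, from mRNAs that end in a stem-loop and mostly lack a poly(A) tail. Of 29 tested, 21 had a ratio above 0 with a median of 0.47. With the control siRNA 4 were past 2-fold higher and 2 past 2-fold lower, against 3.55% and 4.16% of all tested genes. HIST1H2AD measured 68.1 and 14.5 FPKM, a ratio of 2.15, against 21.5 to 44.8 FPKM in the other 6 libraries, and its bounds of 52.1 to 84.1 and 5.75 to 23.3 FPKM did not overlap. HIST1H3H was at 17.04 and 5.38 FPKM and HIST1H2BN at 59.9 and 29.2 FPKM, with a length-weighted ratio of 0.76. The other members past 2-fold rested on transcripts assembled from the reads. HIST1H2BD was at 529.1 and 62.8 FPKM, HIST1H2BF at 62.4 and 1272 FPKM and HIST1H1A at 225.2 and 1129 FPKM. In HIST1H2BF a 406-nt transcript assembled in the empty vector library alone held 1235 FPKM. On the annotated transcripts by themselves the ratio of HIST1H2BF was 0.70, in the opposite direction. The annotated transcript of HIST1H2BD, 523 nt long, was likewise opposite to the sum, at 0 with the control siRNA and 57.0 FPKM with the empty vector, so no direction is given for either gene.

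Genes of the response to foreign nucleic acid were few among those tested. The list of interferon-stimulated genes does not hold every gene that interferon can induce. Of its 11 tested members 0 were past 2-fold in either direction, where 7.71% of all tested genes were. Their median ratio was -0.16 and 3 of the 11 ratios were above 0. The largest ratio in size was that of ISG15, a ubiquitin-like modifier, at 3.87 and 6.46 FPKM, followed by IFITM3 at 24.6 and 16.5 FPKM, MX2 at 6.27 and 9.48 FPKM and IFI6 at 4.12 and 6.22 FPKM. IFIT1 was at 1.53 and 1.84 FPKM, OAS1 at 0.744 and 1.48 FPKM and MX1 at 3.16 and 0.737 FPKM, below the level tested.

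Of 7 tested nucleic acid sensors and their signalling genes 1 was past 2-fold higher and 1 lower, against 3.55% and 4.16% of all tested genes. SAMHD1, a nucleotide triphosphohydrolase, was higher at 19.5 and 8.02 FPKM. TBK1, a kinase that activates interferon regulatory factors, was lower at 6.03 and 16.9 FPKM. Different transcripts led both genes in the 2 libraries, and their length-weighted ratios were 0.36 and -0.15. Of 4 tested NF-kB and cytokine genes 3 had a ratio above 0, with a median of 0.35. The 1 past 2-fold, where 4.16% of all tested genes were past 2-fold lower, was NFKB1, a subunit of NF-kB. NFKB1 was lower at 4.87 and 17.2 FPKM, with a length-weighted ratio of -0.48. The inhibitor gene NFKBIA was at 9.36 and 6.06 FPKM. CXCL8 and CXCL10, which encode chemokines, were listed at 0 in both libraries.

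Of 15 tested genes of the RNA interference machinery 1 was past 2-fold higher and 0 lower, against 3.55% and 4.16% of all tested genes. The median of the list was -0.02. The gene past 2-fold was DICER1, which cuts microRNA precursors, at 76.03 and 21.6 FPKM. The leading transcript of DICER1 was 717 nt long with the control siRNA and 8827 nt with the empty vector, and the length-weighted ratio was 0.09. DGCR8, the partner of the nuclear nuclease Drosha, was at 11.5 and 17.7 FPKM. TNRC6C and TNRC6A, which act with Argonaute in silencing, were at 12.8 and 7.22 FPKM and at 17.1 and 23.2 FPKM. Of 11 immediate early genes, which are induced soon after a stimulus, 9 had a ratio above 0 with a median of 0.30. FOSL2 was past 2-fold higher at 27.5 and 8.95 FPKM with a length-weighted ratio of 0.24, where 3.55% of all tested genes were past 2-fold higher. JUNB was at 6.51 and 4.09 FPKM and JUN at 13.7 and 15.04 FPKM.

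Growth and stress lists had smaller medians. The 27 nucleotide supply genes had a median of 0.26, which was -0.05 among the 9 led by the same transcript in both libraries. The other medians were 0.00 for 40 DNA replication genes, -0.03 for 24 regulators of entry into S phase, 0.09 for 40 mitosis genes, of which 29 had a ratio above 0, and 0.03 for 30 DNA damage response genes. They were -0.10 for 19 p53 targets, 0.04 for 23 cytosolic heat shock proteins and 0.04 for 26 genes of the unfolded protein and amino acid stress response. Without scaling each of these positive medians turned negative, except that of nucleotide supply. Cholesterol synthesis genes had a median of 0.18 over 25 genes, which turned to -0.02 without scaling.

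Some members of these lists were past 2-fold with the same leading transcript in both libraries. NME1, a nucleoside diphosphate kinase, was higher at 141.6 and 44.1 FPKM, against 74.996 to 102.4 FPKM elsewhere, so that the control siRNA was the highest and the empty vector the lowest of 8. CTSD, the gene of a lysosomal protease, was at 12.6 and 4.62 FPKM, PMVK of the mevalonate pathway at 10.1 and 4.49 FPKM, and SNHG7, a host gene of small nucleolar RNAs, at 35.8 and 17.1 FPKM. CHEK2, a DNA damage checkpoint kinase, was lower at 20.98 and 43.2 FPKM, against 28.8 to 48.6 FPKM elsewhere, with the control siRNA the lowest of 8. TIGAR, a p53 target that lowers glycolytic flux, was lower at 4.14 and 11.9 FPKM, with overlapping bounds of 2.34 to 5.94 and 3.95 to 19.9 FPKM. On the length-weighted measure NME1 and CTSD were still past 2-fold, whereas PMVK (0.99), SNHG7 (0.44), CHEK2 (-0.95) and TIGAR (-0.88) were not.

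The remaining members past 2-fold of these lists were led by different transcripts in the 2 libraries. In the DNA damage response ATR was at 17.5 and 3.24 FPKM and EXO1 at 56.9 and 23.8 FPKM, and lower were CHEK1 at 14.7 and 38.9 FPKM and RAD51D at 6.31 and 18.3 FPKM. CHEK1 was listed at 0 in 5 of the other 6 libraries. In DNA replication RFC2 was at 50.5 and 17.4 FPKM, POLD2 at 92.01 and 29.2, POLA1 at 23.02 and 75.96 and PRIM2 at 34.1 and 73.3 FPKM, and in mitosis INCENP was at 8.96 and 35.6 FPKM. In nucleotide supply CTPS1 was at 87.5 and 36.01 FPKM and ADSL at 43.7 and 93.1 FPKM. The p53 targets ZMAT3 and CCNG1 were at 13.1 and 4.68 FPKM and at 256.2 and 113.6 FPKM, and the histone variant gene H2AFV at 127.8 and 37.8 FPKM. Of the cholesterol list FADS1 was at 70.7 and 29.3 FPKM, STARD4 at 7.53 and 3.20 and HSD17B7 at 8.28 and 20.2 FPKM, and the autophagy gene ATG16L1 was at 6.29 and 17.4 FPKM. Of the splicing factors PNISR was at 68.9 and 32.3 FPKM, CLK1 at 9.98 and 3.97, SF1 at 25.8 and 66.6 and RBM39 at 87.7 and 203.7 FPKM. Among the genes of this paragraph CLK1 alone was past 2-fold on the length-weighted measure, with a ratio of 1.16.

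A summed FPKM gives much weight to a short transcript, so each sum was set beside a length-weighted sum, in which FPKM times transcript length is added and divided by the length of the longest expressed transcript. On that measure 129 of 8441 tested genes were past 2-fold higher with the control siRNA (1.53%) and 70 lower (0.829%), 2.36% together. Of the 10387 genes tested on the sum, 128 were past 2-fold higher on both measures (1.23%) and 86 lower (0.828%). These were counted whether or not the gene reached the level filter on the length-weighted measure. They are therefore not a part of the 129 and 70, and the counts do not measure how far the 2 measures match.

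Among the 12 highest of these 128, 5 were led by different transcripts in the 2 libraries. AQP7, an aquaglyceroporin gene, was at 76.003 and 1.34 FPKM, against 67.6 to 79.2 FPKM in the other 6 libraries, so the empty vector stood apart. A transcript of 692 to 695 nt assembled separately in the other 7 libraries carried those levels and was not assembled in the empty vector library. In the control siRNA library it reached position 33657296 of chromosome 9 (hg19), whereas AQP7 ends at 33402517. The annotated AQP7 transcripts that carried the empty vector level were at 0 in the other 7 libraries. The levels therefore cannot be read as those of AQP7 alone. JPX, a long noncoding RNA gene, was at 67.7 and 10.7 FPKM, with an assembled 840-nt transcript in the control siRNA library. Its ratio changed sign when short transcripts were kept, when transcripts marked LOWDATA were left out and when assembled transcripts were left out, so no direction is given for it. MTCO1P53 at 448.3 and 22.5 FPKM, RPS15AP24 at 71.5 and 0.689 FPKM and HIST1H2BD also had assembled leading transcripts in the control siRNA library.

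MTRNR2L10 had the highest ratio, 10.43. It stood at 5522 and 3.01 FPKM, at 3.53 after AUF1 siRNA, 3.49 for the mix of isoforms, 1.36 for p45, 5109 for p42, 6347 for p40 and 4.03 FPKM for p37. The control siRNA, p40 and p42 libraries were high and the other 5 were low, so control and overexpression libraries were found on both sides. The gene encodes a humanin-like peptide, and its transcript shares a run of 62 nt with the mitochondrial large ribosomal RNA MT-RNR2. The others of the 12 with the same leading transcript were RN7SKP180 at 20.3 and 1.62 FPKM, IFI27L2 at 13.8 and 1.29 FPKM, DHFRP1 at 12.1 and 0.646 FPKM, AC107983.1 at 16.002 and 1.05 FPKM, ENSG00000197047 at 23.3 and 2.32 FPKM and ENSG00000242932 at 15.5 and 1.12 FPKM.

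Among the 12 lowest of the 86, 10 were led by different transcripts. EEF1G, the gamma subunit of translation elongation factor 1, was at 51.6 and 1123 FPKM, against 42.03 to 70.9 FPKM elsewhere. A 360-nt transcript of EEF1G assembled in the empty vector library held most of its level there, and the annotated 1523-nt transcript stood at 51.6 and 72.7 FPKM. ZNF587, a zinc finger gene, was at 7.55 and 244.5 FPKM, with 256.9 FPKM in the library of all isoforms. RRM1, the large subunit of ribonucleotide reductase, was at 10.1 and 95.2 FPKM, against 45.4 to 80.5 FPKM elsewhere, and its 583-nt retained-intron transcript, present in the other 7 libraries, was at 0 with the control siRNA. SULF2, a heparan sulfate sulfatase, was at 9.16 and 117.1 FPKM through a 363-nt transcript that was at 0 with the control siRNA and with all isoforms.

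CD59, which encodes a complement inhibitor, was at 5.01 and 32.8 FPKM and MDFI at 0.744 and 10.6 FPKM. The noncoding LINC00674 and AP003063.1 were at 9.82 and 76.2 FPKM and at 0.812 and 9.97 FPKM, and HIST1H2BF is described with the histone genes. RPS12P27 at 0.00089 and 12.2 FPKM and AC104849.1 at 5.02 and 43.3 FPKM, both processed pseudogenes, kept the same leading transcript.

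Other genes were past 2-fold on the sum alone. RRM2, the small subunit of ribonucleotide reductase, was at 856.5 and 83.96 FPKM, with 707.8 FPKM on a 316-nt assembled transcript, and its 3673-nt transcript stood at 47.7 and 47.6 FPKM. BBIP1 at 142.0 and 13.04 FPKM, MAML1 at 34.1 and 2.41 FPKM and MCM9 at 56.2 and 4.34 FPKM were led by transcripts of 383 to 469 nt with the control siRNA. MAP3K13 at 1.04 and 24.2 FPKM, RNF169 at 3.61 and 52.2 FPKM, LEPROT at 3.97 and 54.1 FPKM and ATG12 at 5.85 and 72.8 FPKM were led by transcripts of 340 to 618 nt with the empty vector. The length-weighted ratios of these 8 ran from -0.74 to 0.92.

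Of all 801 genes past 2-fold, 232 (29%) were led by the same annotated transcript in both libraries with at least 50% of the FPKM in each, against 59.9% of all tested genes. Among the 6227 tested genes with the same leading transcript 130 were past 2-fold higher (2.09%) and 102 lower (1.64%), 3.73% together. The spread of the ratio was wider for short transcripts. The standard deviation was 0.74 across 521 genes below 400 nt and 0.26 across 726 genes at 3000 nt or more, where 1 gene was higher and 2 were lower. Within this set KRTCAP2, a subunit of the oligosaccharyltransferase, was higher at 61.7 and 16.2 FPKM, POLR2L, a shared subunit of the RNA polymerases, at 78.9 and 36.6 FPKM, and B2M, the light chain of MHC class I, at 28.4 and 10.7 FPKM. SRPK2, a kinase of splicing factors (hg19 chromosome 7, 104751151 to 105039755), was lower at 367.7 and 823.7 FPKM, against 538.4 to 835.5 FPKM elsewhere, on a 329-nt transcript. These 4 were chosen after their values were seen.

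By gene type, processed pseudogenes had a median ratio of 0.32 over 324 genes. Of these 25 were past 2-fold higher (7.72%) and 9 lower (2.78%), against 3.55% and 4.16% of all tested genes. The median was -0.13 for 338 antisense genes, -0.14 for 246 long intergenic noncoding genes and -0.00 for 8883 protein-coding genes. The sources used here give no statement on strand, so reads of an antisense gene and of its partner cannot be told apart.

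Both siRNA libraries lay on one side of all 6 plasmid libraries in 123 of the 801 genes past 2-fold (15.4%), and in 9.15% of all tested genes. For the 130 higher genes with the same leading transcript this was so in 50 (38.5%), of which 12 were 7SK and its copies, and for the 102 lower ones in 8 (7.84%). The choice of genes by the control libraries raises these shares by itself, so they are a description and bear on no cause. The level in the AUF1 siRNA library, which differs in AUF1 as well, was nearer to the control siRNA than to the empty vector in 92 of the 130 (70.8%) and in 23 of the 102 (22.5%), against 47.5% of all tested genes. The median of the 5 overexpression libraries was nearer to the empty vector in 62 of the 130 (47.7%) and in 66 of the 102 (64.7%), against 56.7% of all tested genes. Of all 801, the control siRNA alone was outside the range of the other 7 libraries in 266 (33.2%, against 30.6% of all tested genes). The empty vector alone was outside in 195 (24.3% against 20.9%). Both were extreme in 181 (22.6% against 5.28%) and neither in 159 (19.9% against 43.2%). The share with both extreme is likewise raised by the choice of genes.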

How the data were processed

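Total RNA of 8 HEK293 samples was amplified with a NuGEN Ovation kit and sequenced, per the labels' protocols. The authors deposited 1 table per library with an FPKM value, a lower and an upper bound and a coverage for each transcript, per the file headers. Alignment and quantification tools in the submitters' processing notes are Cufflinks 2.0.2, TopHat2 2.0.6 and Cuffdiff, with build hg19, and no source used here gives the annotation release. The number of reads is unknown. Deposited coverage, the estimated read depth over a transcript, was 0.246 per FPKM with the control siRNA, 0.214 with the empty vector and 0.213 to 0.345 over all libraries. The bounds describe how well a level was estimated in its own library, not variation between cultures.

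Of 160485 Ensembl transcripts 136915 matched GENCODE 29, which gave symbols, types and sequences, and 20410 were placed with a gene through the tables. Transcripts assembled from the reads were placed with the gene of their cluster, and those outside any gene made up 8.47% of length-weighted FPKM with the control siRNA and 4.83% with the empty vector. FPKM was summed per gene over transcripts of 300 nt or more and divided by median-of-ratios factors over 13855 genes that reached 1 FPKM in each of the 8 libraries (0.930 for the control siRNA, 1.06 for the empty vector). Adding 1 FPKM understates the ratio of low genes. A gene was tested at a mean of 5 FPKM or more, above 0 in both libraries and with no failed transcript, and counted as past 2-fold where its log2 ratio reached 1 or -1. Genes left out because they were listed at 0 numbered 78 for the control siRNA and 95 for the empty vector. Gene positions (hg19) come from the authors' tables. A check on GC content was void, since only 71.9% of the genes with the same leading transcript had a sequence to match.

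Named genes were the 12 highest and 12 lowest ratios past 2-fold on both measures, the 4 highest and 4 lowest past 2-fold on the sum alone, every list member past 2-fold, HNRNPD, up to 4 leading members of a list and the markers, of which some are not reported here. The comparison, gene lists and rules were chosen with earlier results of these data known. The calls were run on simulated data with planted changes well above the threshold, little noise and no change of leading transcript. That run checks the computation and does not bear on how reliable the calls are in these libraries. Python 3.11.15, numpy 2.4.6, pandas 2.3.3, Biopython 1.88 and matplotlib 3.10.9 were used.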

Additional observations from a re-analysis of the deposited data

How the results depend on the processing

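The counts of genes past 2-fold, 369 higher and 432 lower with the control siRNA, moved with the filter and with how transcripts were summed. They were 659 and 871 at a mean of 1 FPKM or more, 179 and 150 at 20 FPKM or more, and 732 and 948 with no such filter. They were 129 and 70 on the length-weighted sum, 130 and 102 among genes with the same leading transcript (chosen after seeing the data), and 232 and 231 with 5 FPKM added before the log. With no length filter 590 were higher, and 279 were lower where the bounds must not overlap. Without scaling the counts were 246 and 648. The number with both siRNA libraries on one side, 123, became 200, 60 and 227 under the 3 filters, 53 on the length-weighted sum and 58 with the same leading transcript. JPX changed sign with no length filter (-4.53), without LOWDATA transcripts (-0.60) and without assembled ones (-0.61, chosen after seeing the data), and HIST1H2BF without assembled ones (0.70). Among list medians of 0.1 or more in size, those that changed sign were, without scaling, histone mRNA processing (-0.00479), mitochondrial ribosomal proteins (-0.0262) and cholesterol synthesis (-0.0177), without LOWDATA transcripts the HEK293 markers (0.10), and with the same leading transcript nucleotide supply (-0.0460). Of the 15 list medians nearer to 0, 14 changed sign under at least 1 setting. The filters and the same leading transcript change how many genes are tested, and for the other settings the cause was not tested. No paired analysis was possible because each group holds 1 library.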

Other observations

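Some of the most abundant RNAs past 2-fold belong to no list. HFM1, which encodes a meiotic helicase, was at 42428 and 13404 FPKM, and stood at 20472 to 29058 FPKM in the other 6 libraries. The control siRNA library was the highest and the empty vector the lowest. HFM1 was led by a 540-nt transcript, and which RNA its reads came from was not tested. PDE3A at 6842 and 2835 FPKM, EFCAB11 at 3385 and 1654 FPKM and NOTCH2 at 2740 and 1199 FPKM were led by transcripts of 663 to 959 nt. In PDE3A and EFCAB11 the library of all isoforms was lower than the empty vector, at 2180 and 1452 FPKM. These genes were chosen after their values were seen.

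SCARNA9, a small Cajal body RNA, was at 149.6 and 51.4 FPKM. The AUF1 siRNA library held 99.2 FPKM of SCARNA9 and the overexpression libraries 50.2 to 79.2 FPKM, so both siRNA libraries were above all plasmid libraries. THOC3, a subunit of an mRNA export complex, was at 47.7 and 17.8 FPKM, and in the other 6 libraries at 31.03 to 40.999 FPKM, so the empty vector stood apart. Both were chosen after their values were seen.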
